A study of Mus musculus with 7 samples.

Results

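The 10 genes followed here belong to 3 fibrogenic signalling systems of bile duct cells: the TGF-beta ligands Tgfb1, Tgfb2 and Tgfb3, their receptors Tgfbr1 and Tgfbr2, the signal carriers Smad3 and Smad7, the PDGF ligands Pdgfa and Pdgfb, and the endothelin gene Edn1. They were taken by name from a deposited table of 24552 gene symbols, and all 10 of the 10 were found there. The cells were EpCAM+ cholangiocytes, freshly isolated from livers of Foxp3GFPDTR mice, a strain in which Foxp3-positive regulatory T cells carry the diphtheria toxin receptor. Both groups carried that transgene and ate a DDC diet for 10 days, which injures the bile ducts. One group received saline (PBS, 4 libraries) and the other diphtheria toxin at 1 µg/kg (DT, 3 libraries), injected into the abdomen every 48 h. No uninjured group and no toxin-treated group without the transgene is part of these samples. The labels read here give no age. The comparison asks how duct epithelium under injury differs when regulatory T cells are targeted.

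TGF-beta is secreted in a latent form that integrins, proteases and thrombospondin release. It then binds a receptor pair encoded by Tgfbr2 and Tgfbr1, which phosphorylates SMAD2 and SMAD3, while SMAD7 is induced by the pathway and inhibits it. PDGF chains act through PDGFRA and PDGFRB on mesenchymal cells such as hepatic stellate cells and portal fibroblasts, and endothelin 1 acts through EDNRA and EDNRB and contracts stellate cells. In injured liver, bile duct epithelium is known as a source of such ligands.

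The TGF-beta ligand genes differed most in whether they were read at all, so the sequences upstream of the start sites of Tgfb1, which had almost no reads, and Tgfb2, which had reads in every library, are shown. They are RefSeq sequences of build GRCm38.p6, another build than the mm9 of the counts, each 250 bases long and read 5′ to 3′ up to the transcript start. Tgfb1 is at chr7:25686752-25687001 on the plus strand and Tgfb2 at chr1:186705990-186706239 on the minus strand. Capitals mark matches to 6 motifs searched on both strands, none of which overlapped here. These were the TATA box, spelled TATAAA, the GC box of Sp1-type factors, spelled GGGCGG, the E box of helix-loop-helix factors, spelled CACGTG, and the core of the cyclic AMP response element, spelled TGACG. The AP-1 site was spelled TGANTCA and the SMAD box, a palindrome, GTCTAGAC.
Tgfb1: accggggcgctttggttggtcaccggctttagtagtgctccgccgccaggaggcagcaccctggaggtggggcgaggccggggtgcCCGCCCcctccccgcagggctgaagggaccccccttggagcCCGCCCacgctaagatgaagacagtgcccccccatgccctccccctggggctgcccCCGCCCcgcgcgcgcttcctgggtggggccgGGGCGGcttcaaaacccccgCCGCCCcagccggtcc
Tgfb2: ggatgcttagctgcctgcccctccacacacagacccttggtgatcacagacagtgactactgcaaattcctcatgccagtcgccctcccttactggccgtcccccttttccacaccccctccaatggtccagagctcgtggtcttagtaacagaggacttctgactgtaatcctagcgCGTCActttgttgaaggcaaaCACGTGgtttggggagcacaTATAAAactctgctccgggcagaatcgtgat
The Tgfb1 sequence was 75.2% G or C and held 5 GC boxes and no other match. The Tgfb2 sequence was 53.6% G or C and held a TATA box beginning 31 bases before the start, an E box beginning 51 bases before it and a cyclic AMP core beginning 72 bases before it. Among 32851 RefSeq windows of the same length, 32.7% held a GC box, 12.4% a TATA box, 6.02% an E box, 17.8% the cyclic AMP core, 6.75% an AP-1 match and 0.167% a SMAD box. The search of the followed genes covered windows of 7 of the 10, with the chromosome of Smad7 left out. These matches are letters in a window, and no binding was measured.

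Libraries held 4805018 to 6285624 reads. The labelled cell type was borne out by its markers: each of 19 bile duct markers had reads, and together they came to 23925 to 29234 CPM (counts scaled to library size; as each transcript is read at its 3′ end, they are not divided by length) in PBS and 25038 to 31256 CPM in DT. Of 19 stellate cell and fibroblast markers 8 had no read in any library, among them Pdgfrb, Pdgfra, Des and Lrat. Over all 24552 genes, 13065 had no read in any library, so an unread marker is by itself a weak sign of absence. The summed level of that list was 675 to 2316 CPM in PBS and 1131 to 2163 CPM in DT, most of it from Rgs5 (1404 ± 645 CPM in PBS, SD, n = 4). Of 15 endothelial markers 8 had no read, and the list summed to 0 to 48.2 CPM in PBS and 0 to 170 CPM in DT. The macrophage list, with 16 of 17 markers read, summed to 872 to 2552 CPM in PBS, highest in PBS 4, and 1511 to 2134 CPM in DT. Outside PBS 4 most of it came from Cd14. Cd14 was at 809, 1473, 1449 and 873 CPM in PBS 1 to 4, and at 1287, 1235 and 1268 in DT 1 to 3. Cd68, C1qa and C1qc had 0 reads in PBS 1 to 3 and 592, 742 and 898 in PBS 4, while Csf1r was read in every library. Of 10 platelet markers 7 had no read. The hepatocyte list, with 18 of 23 markers read, summed to 2342 to 4061 CPM in PBS and 3805 to 5972 CPM in DT. Of the 18 lymphocyte markers found, 12 had no read, and that list summed to 0 to 76.0 CPM in PBS and 47.6 to 213 CPM in DT. Reads of Y-linked genes came up in DT 1 to 3 and, among the saline libraries, in PBS 1. Xist had 12089, 17627 and 10420 reads in PBS 2 to 4, which had no Y-linked reads. It had 630 reads in PBS 1, 453 in DT 1 and 0 in DT 2 and DT 3. Sex, as far as these reads mark it, was thus largely confounded with treatment. The part of other cell types and of this imbalance in the values below was not tested beyond the fits named beside them.

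Of the 10 genes, 6 had reads in every library: Tgfb2, Tgfbr1, Pdgfa, Pdgfb, Smad3 and Edn1. Tgfbr2 and Smad7 were each at 0 in 1 library, and Tgfb1 and Tgfb3 were at 0 in 5 libraries. In these libraries a count of 0 is frequent at moderate levels: over all genes, 25.6% of values were 0 for a mean of 200 to 500 counts in the remaining libraries of the group, and 43.5% were for a mean of 100 to 200. A 0 is therefore a weak sign of absence. By counting error alone it allows up to 3 counts in a library.

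**Figure D1:**
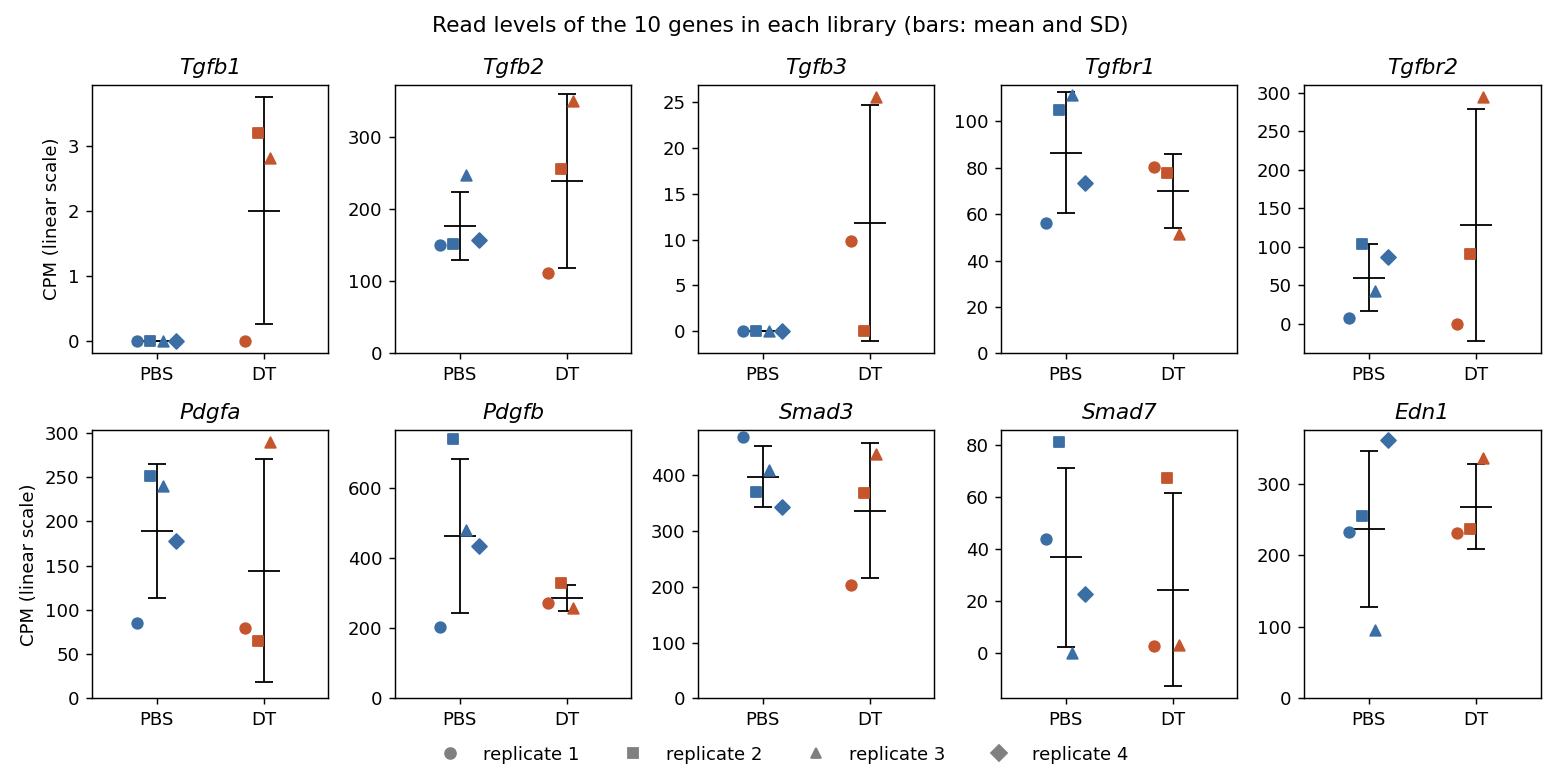
Each panel plots 1 of the 10 genes in CPM on a linear axis, with a point for each PBS library (4, blue) and DT library (3, orange), the marker shape giving the replicate number, and black bars for the mean and SD. The groups overlap in all 10 panels, and Tgfb1 and Tgfb3 lie at 0 in every PBS library.

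Tgfb2 supplied nearly all TGF-beta ligand reads. PBS 1 to 4 gave 772, 768, 1197 and 794 reads, and DT 1 to 3 gave 668, 1361 and 1987. DT 3 was highest and DT 1 lowest, so that the DT libraries spanned the whole PBS range. In CPM the mean was 176 ± 47.0 over PBS (SD, n = 4) and 239 ± 121 over DT (SD, n = 3); the log2 difference, DT minus PBS, was 0.44 (SE 0.61; adjusted p = 1.00 by edgeR). Without DT 3 the value was 0.05, and without DT 1 it was 0.76.

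Tgfb1, the isoform most studied in fibrosis, had 0 counts in each PBS library and in DT 1, and 17 and 16 counts in DT 2 and DT 3. Tgfb3 had 0 counts in each PBS library and in DT 2, and 59 and 145 in DT 1 and DT 3. Both were below the filter on low counts and were not tested, and no fold is given since their few reads came from 2 DT libraries each. Tgfb2 made up 100% of the reads of the 3 ligands in each PBS library and 91.9%, 98.8% and 92.5% in DT 1 to 3. Without the filter, edgeR gave an adjusted p of 0.521 for both genes, so the reads present in DT and not in PBS did not pass.

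Both TGF-beta receptor genes were tested, and neither passed. Tgfbr1, the type I receptor kinase, gave 289, 532, 541 and 373 reads over PBS 1 to 4, and 484, 415 and 292 over DT 1 to 3. Its DT libraries lay inside the PBS range apart from DT 3, which in CPM (51.5) was just under PBS 1 (56.1). Mean levels were 86.5 ± 26.1 (PBS) and 69.9 ± 16.0 CPM (DT), a log2 difference of -0.31 (SE 1.62; adjusted p = 1.00 by edgeR), and with 1 library left out it ran from -0.48 to -0.13.

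Tgfbr2, the type II receptor that binds the ligand, was uneven in DT. Its reads were 38, 529, 205 and 440 over PBS 1 to 4, and 0, 485 and 1669 over DT 1 to 3. DT 1 was below and DT 3 above every PBS library. Mean levels were 60.2 ± 43.9 (PBS) and 128 ± 151 CPM (DT), a log2 difference of 1.09 (SE 1.57; adjusted p = 1.00 by edgeR), and without DT 3 the sign turned to -0.41. With the replicate number as a block it was -0.58. The co-receptor genes Tgfbr3 and Eng, chosen after their values were seen, had no read in any library and 8 reads in DT 2 alone.

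Smad3, which carries the TGF-beta signal to the nucleus, had the smallest relative spread of the 8 tested genes in PBS. PBS 1 to 4 gave 2411, 1879, 1992 and 1736 reads, and DT 1 to 3 gave 1224, 1963 and 2484. DT 1 was below all PBS libraries, and DT 2 and DT 3 lay within their range. Mean levels were 398 ± 54.4 (PBS) and 337 ± 121 CPM (DT), a log2 difference of -0.24 (SE 0.43; adjusted p = 1.00 by edgeR), with values of -0.003 without DT 1 and -0.48 without DT 3. In PBS the coefficient of variation of Smad3 was 13.7%, and 5.02% of 458 genes within 1.5-fold of its level had a smaller one.

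Smad7, the inhibitory SMAD, was the least read of the 8 tested genes. Its reads were 226, 411, 0 and 114 over PBS 1 to 4, and 15, 358 and 18 over DT 1 to 3. DT 2 lay near the top of the PBS range and the other DT libraries near 0, as PBS 3 was. Mean levels were 36.9 ± 34.5 (PBS) and 24.3 ± 37.2 CPM (DT), a log2 difference of -0.60 (SE 2.89; adjusted p = 1.00 by edgeR). The value ran from -3.69 without DT 2 to 0.13 without PBS 2, so no direction can be given.

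Pdgfb, which encodes the PDGF B chain, had the highest mean CPM of the 10 genes over all 7 libraries and in PBS, where in DT Smad3 was higher, and the smallest unadjusted p. PBS 1 to 4 gave 1049, 3749, 2329 and 2205 reads, and DT 1 to 3 gave 1636, 1759 and 1470. PBS 2 to 4 lay above every DT library, and PBS 1 lay below every DT library. Mean levels were 464 ± 220 (PBS) and 287 ± 37.9 CPM (DT), a log2 difference of -0.69 (SE 0.44; adjusted p = 1.00 by edgeR). PBS 1 is also the PBS library with Y-linked reads: it was at 204 CPM, the PBS libraries without them at 435 to 739 CPM and the DT libraries at 259 to 330 CPM. When libraries with and without Y-linked reads were set apart in the edgeR fit the value was 0.50, so the sign turned. All DT libraries had such reads, so under that covariate they are compared with PBS 1 alone, a single library. That covariate moved the median of all tested genes from -0.02 to 0.67, and that of genes at 100 CPM or more, as Pdgfb is, to 0.14. With no covariate and 1 library left out, the Pdgfb value ran from -0.95 (without PBS 1) to -0.38 (without PBS 2).

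Pdgfa, which encodes the A chain, gave 441, 1276, 1166 and 903 reads over PBS 1 to 4, and 476, 344 and 1641 over DT 1 to 3. PBS 1, DT 1 and DT 2 formed a low set and DT 3 was the highest library. Mean levels were 189 ± 76.0 (PBS) and 144 ± 126 CPM (DT), a log2 difference of -0.39 (SE 0.74; adjusted p = 1.00 by edgeR), and it ran from -1.40 without DT 3 to -0.03 without DT 2. As for Pdgfb, the sign turned with the Y-linked covariate, against PBS 1 alone, to 0.75, where the median of genes at 100 CPM or more was 0.14. Within a library there were 2.38, 2.94, 2.00 and 2.44 Pdgfb reads for each Pdgfa read over PBS 1 to 4, and 3.44, 5.11 and 0.896 over DT 1 to 3, so that the 2 chains kept a narrow ratio in PBS and a wide one in DT.

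Edn1, which encodes the precursor of the vasoconstrictor endothelin 1, was read in every library. Its reads were 1195, 1294, 467 and 1831 over PBS 1 to 4, and 1394, 1260 and 1904 over DT 1 to 3. PBS 3 was the lowest library and PBS 4 in CPM the highest, with all DT libraries inside the PBS range. Mean levels were 236 ± 109 (PBS) and 268 ± 58.8 CPM (DT), a log2 difference of 0.18 (SE 0.53; adjusted p = 1.00 by edgeR). The sign turned without PBS 3 (-0.09) and without DT 3 (-0.02).

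**Figure D2:**
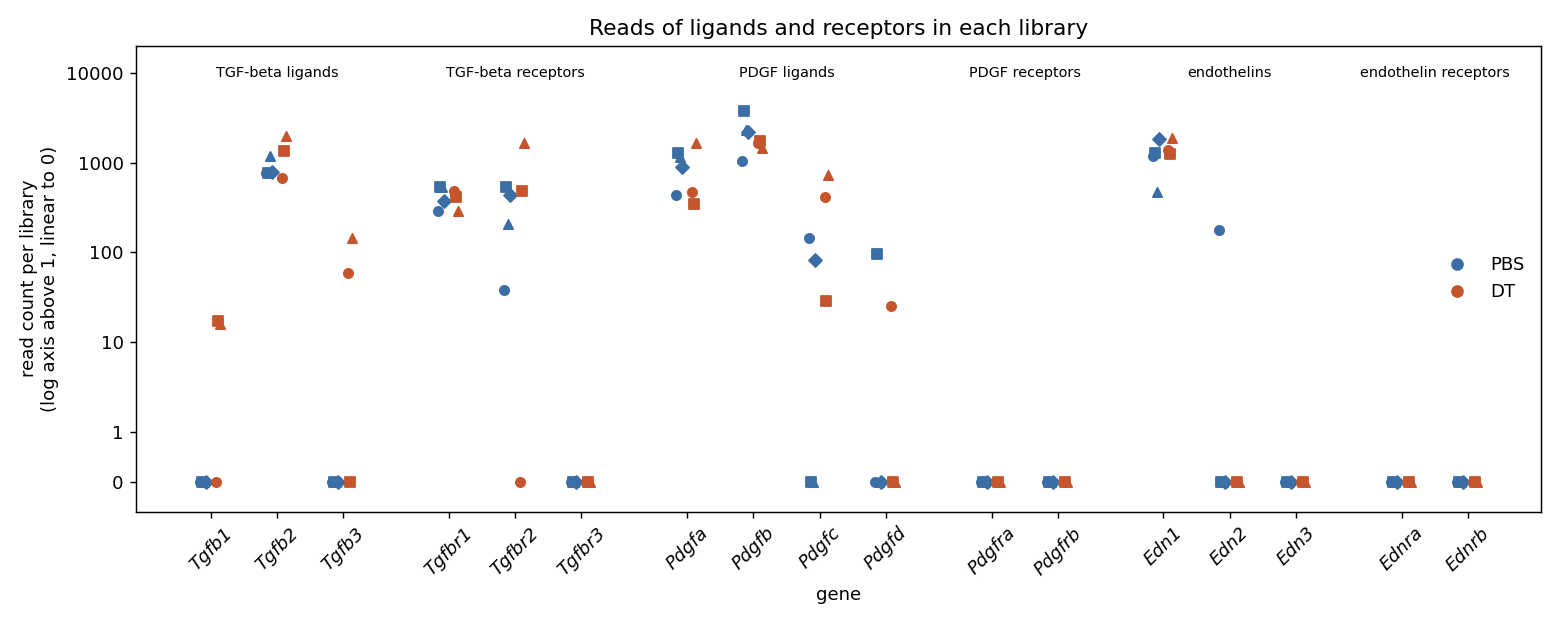
Read counts per library (log axis above 1, linear down to 0) of the ligand and receptor genes of the 3 systems, with PBS in blue and DT in orange and marker shapes for the replicate number. Tgfb2, Pdgfa, Pdgfb and Edn1 have reads in all 7 libraries, whereas Tgfbr3, Pdgfra, Pdgfrb, Ednra and Ednrb lie at 0 in all 7.

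The receptor genes of the PDGF and endothelin ligands had no reads in these libraries, which was so for 13065 of all 24552 genes. Pdgfra, Pdgfrb, Ednra and Ednrb had 0 counts in each of the 7 libraries, while their ligand genes Pdgfb, Pdgfa and Edn1 totalled 14197, 6247 and 9345 reads. The other ligands were sparse: Pdgfc gave 144, 0, 0 and 82 reads over PBS 1 to 4, and 414, 29 and 721 over DT 1 to 3, Edn2 had 177 counts in PBS 1 alone, and Edn3 had none. These 7 genes and Pdgfd, which had 97 counts in PBS 2 and 25 in DT 1, were chosen after their values were seen.

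None of the 8 tested genes passed edgeR in either direction, where 0.0390% of all 7688 tested genes did. Positive fold changes were found for 3 and negative ones for 5, and their median log2 fold change was -0.27 beside -0.02 over all tested genes. At an unadjusted p below 0.05 there were 0 of the 8 as higher and 0 as lower (background 1.39% and 2.11%). DESeq2 and limma-voom also called 0 of the 8 (background 1.59% and 0.273%), as did edgeR with no filter (0.0696%), with a filter at a mean of 100 counts (0.0293%), with a replicate block (0.156%) and with the Y-linked covariate (0.338%). In no gene did the DT libraries lie wholly above or wholly below the PBS libraries, where 3.73% and 2.58% of tested genes did. With SEs of 0.43 to 2.89 on the log2 scale these data do not show that levels were equal: for Pdgfb the estimate ± 2 SEs ran from -1.57 to 0.18.

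**Figure D3:**
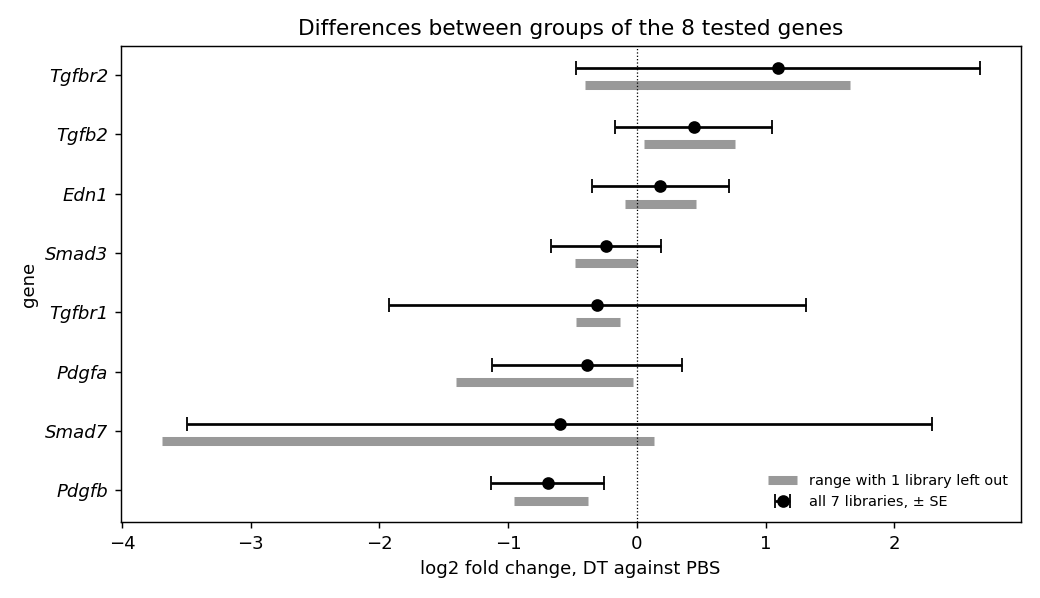
Log2 fold change of DT against PBS for the 8 tested genes, with black points and bars for the estimate and its SE over 7 libraries and grey bars for the range when 1 library was left out. The estimates lie between -0.69 (Pdgfb) and 1.09 (Tgfbr2), and the grey bars of Tgfbr2, Smad7 and Edn1 cross 0.

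The genes also differed in how much they varied among libraries of one group. In PBS the coefficient of variation was 13.7% for Smad3, 26.7% for Tgfb2 and 30.2% for Tgfbr1, and each was small for its level: 5.02%, 10.8% and 5.45% of genes within 1.5-fold of that level had a smaller one. Pdgfb, at 47.3%, was uneven for its level in PBS, with 82.5% of 400 such genes below it. In DT the order changed. Pdgfb was at 13.2%, with 7.39% of like genes below it, and Tgfbr2 at 117%, with 95.1% below it. These are descriptions of 4 and 3 libraries, and the difference in spread was not tested.

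**Figure D4:**
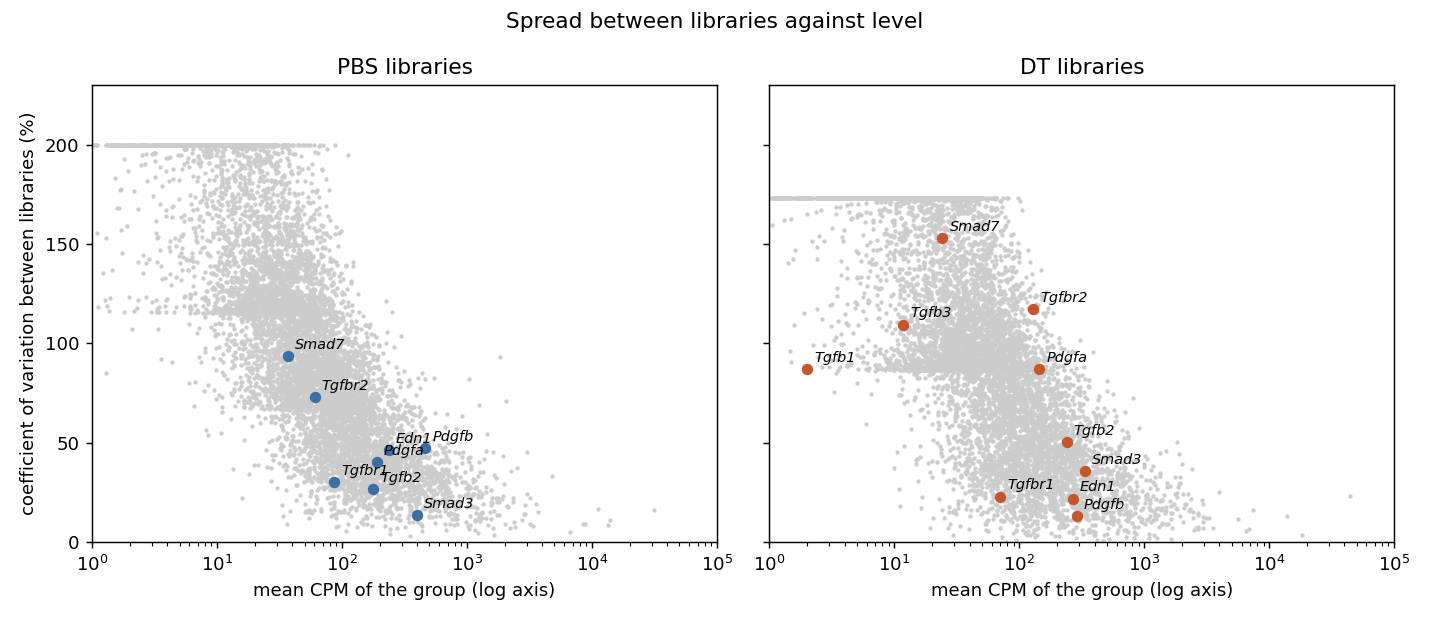
Coefficient of variation between libraries (%) against mean CPM (log axis) in PBS (left) and DT (right), with tested genes in grey and the followed genes named in colour where their mean was above 1 CPM. In PBS Pdgfb lies at 47.3% and Smad3 at 13.7%, and in DT Pdgfb lies at 13.2% and Tgfbr2 at 117%.

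The surrounding pathways were described from 6 lists, 143 genes in all beside the 10. Reads were found for 112 of them, 83 were tested, and 0 passed edgeR (38 positive, 45 negative, median log2 fold change -0.07). At an unadjusted edgeR p below 0.05 there were 2 higher and 4 lower of the 83 (background 1.39% and 2.11% of all tested genes).

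None of the genes that store and release latent TGF-beta passed. Of 20 listed, 11 were tested, 2 with a positive and 9 with a negative estimate (median -0.41 on the log2 scale), where 49.3% of all tested genes were positive. Mmp14, a membrane metalloprotease, gave 1575, 977, 2584 and 1972 reads over PBS 1 to 4, and 692, 1149 and 774 over DT 1 to 3 (log2 difference -1.19, SE 0.52; adjusted p = 1.00 by edgeR, unadjusted below 0.05). The DT libraries were low but DT 2 overlapped PBS 2. Thbs1, which encodes the activator thrombospondin 1, averaged 668 ± 199 (PBS) and 503 ± 329 CPM (DT). The integrin subunit genes Itgav and Itgb1 were at 500 ± 65.3 and 606 ± 121 CPM in PBS and at 385 ± 123 and 660 ± 372 CPM in DT. Itgb6, whose product pairs with the alpha v subunit on epithelium and releases TGF-beta, was chosen after its values were seen and averaged 229 ± 81.7 (PBS) and 129 ± 31.3 CPM (DT) (log2 difference -0.82, SE 0.66; adjusted p = 1.00 by edgeR).

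Of 36 other SMADs, SMAD regulators and receptors, 27 were tested, 14 with a positive and 13 with a negative estimate (median 0.02 on the log2 scale), and 0 passed the threshold. Skil, which encodes SnoN, a repressor of SMAD transcription that TGF-beta itself induces, was in CPM, though not in reads, below every PBS library in all 3 DT libraries. PBS 1 to 4 gave 3152, 2103, 988 and 1932 reads, and DT 1 to 3 gave 924, 200 and 1070, or 403 ± 167 and 127 ± 79.1 CPM (log2 difference -1.67, SE 0.55; adjusted p = 1.00 by edgeR, unadjusted below 0.05). The gap between the groups was narrow, since PBS 3 was at 204 CPM and DT 3 at 189 CPM. The repressor gene Tgif1 was at 486 ± 242 and 575 ± 116 CPM, the feedback gene Pmepa1 at 355 ± 57.5 and 360 ± 83.2 CPM, and the coactivator gene Crebbp at 470 ± 166 and 375 ± 83.3 CPM in PBS and DT.

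Genes known to respond to TGF-beta did not move one way. Of 26 listed, 16 were tested, 8 with a positive and 8 with a negative estimate (median -0.01 on the log2 scale). Besides Skil, lower values with an unadjusted p below 0.05 were found for Ctgf (Ccn2), a matricellular growth factor gene, and Cyr61 (Ccn1), its relative, both also targets of YAP. Ctgf gave 8033, 9004, 11317 and 17112 reads over PBS 1 to 4, and 5714, 5434 and 7698 over DT 1 to 3. The log2 difference was -1.03 (SE 0.26; adjusted p = 0.375 by edgeR). All 3 DT libraries lay below all PBS libraries. It passed by DESeq2 (adjusted p = 0.00479) and without the filter on low counts (edgeR adjusted p = 0.0114), not by limma-voom (0.721). Its log2 difference was -0.49 with the Y-linked covariate, against PBS 1 alone, where the median of genes at 100 CPM or more was 0.14.

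Cyr61 differed by -0.56 on the log2 scale (SE 0.24; adjusted p = 1.00 by edgeR), and without DT 1 it was -0.29. Id2, a helix-loop-helix inhibitor gene that TGF-beta and BMP regulate, had higher means in DT, giving 1333, 947, 893 and 2058 reads over PBS 1 to 4, and 2012, 2459 and 3987 over DT 1 to 3 (log2 difference 0.95, SE 0.44; adjusted p = 1.00 by edgeR). DT 2 and DT 3 lay above all PBS libraries, and DT 1 lay below PBS 4 in reads and in CPM (334 against 406). The value was 0.61 without DT 3. Tpm1, a tropomyosin gene, averaged 740 ± 108 and 719 ± 81.8 CPM. Mesenchymal and matrix targets on the list ranged widely. Postn and Snai2 had no read and Acta2 had 0 to 2 reads per library, while the fibronectin gene Fn1 totalled 18384 reads, the basement membrane collagen gene Col4a1 13620 and the intermediate filament gene Vim 3095, of which 1764 were in PBS 4 and 993 in DT 2. The fibrillar collagen genes Col1a2 and Col3a1 totalled 763 and 767 reads (these 8 were chosen after their values were seen).

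**Figure D5:**
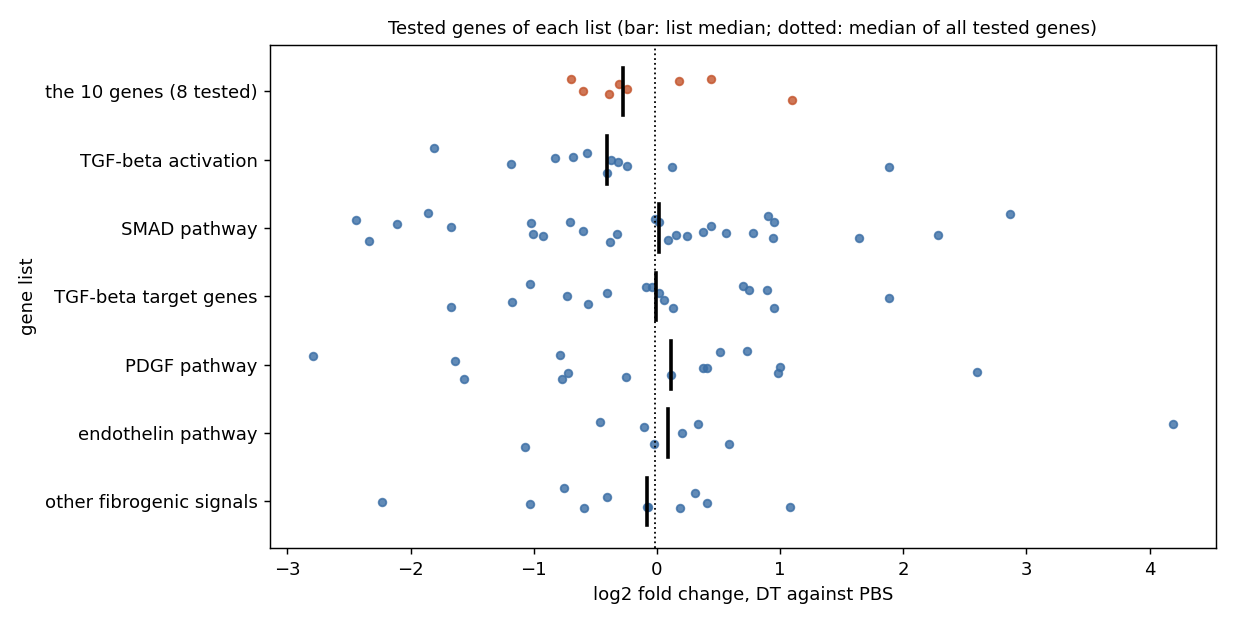
Log2 fold changes of DT against PBS for the tested genes of each list (points), with a bar at each list's median and a dotted line at the median of all tested genes (-0.02). The list of TGF-beta activation has its median at -0.41, that of the 10 genes at -0.27, and the other 5 lie between -0.08 and 0.11.

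Of 21 other PDGF pathway genes, 15 were tested (8 positive, 7 negative, median log2 fold change 0.11), and of 16 other endothelin pathway genes 8 were tested (4 and 4, median 0.09). None passed, and none had an unadjusted p below 0.05. Plat, which encodes the protease that activates PDGF-CC, averaged 1213 ± 406 (PBS) and 1018 ± 443 CPM (DT). The adaptor gene Grb2 was at 234 ± 35.9 and 136 ± 86.5 CPM and the phosphatase gene Ptpn11 at 96.2 ± 68.2 and 124 ± 65.4 CPM. Ece1, whose product converts endothelin precursors, was at 160 ± 69.8 and 201 ± 87.3 CPM, so that these ducts had reads of both the precursor and its processing enzyme. The G protein gene Gnaq was at 113 ± 114 and 112 ± 79.1 CPM, and the calcium channel gene Itpr2 at 113 ± 54.3 and 170 ± 87.1 CPM.

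Among 29 other secreted signals of fibrosis, 11 were tested, 4 with a positive and 7 with a negative estimate (median -0.08 on the log2 scale), and 0 passed the threshold. The most read was Spp1, which encodes osteopontin (11098 ± 1856 in PBS against 13745 ± 1811 CPM in DT, log2 difference 0.31, SE 0.15; adjusted p = 1.00 by edgeR), and Hbegf, an EGF receptor ligand gene, was at 1750 ± 384 and 1666 ± 241 CPM. The hedgehog genes Ihh and Shh, and Il13, Tslp, Fgf2, Bmp7, Nog and Grem1, had no read in any library, and these 8 were chosen after their values were seen.

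The genes whose pattern over the 7 libraries was closest to that of the 2 most read members were found by the root mean square difference of centred log2(CPM + 1) among 2148 genes at 100 CPM or more. For Pdgfb they were Ankhd1, Bcl2l1 and Setd2, with differences of 0.29, 0.29 and 0.29. For Smad3 they were Cxadr, Lrrfip1 and Il1rn, with differences of 0.16, 0.16 and 0.19.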

How the data were processed

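RNA was measured in 7 libraries, made from 100 ng of total RNA with a QuantSeq FWD kit, which reads transcript 3′ ends, per the labels' protocols. The authors deposited raw read counts per gene symbol. Reads were placed on build mm9, as the submitters' processing notes list it. Which aligner, counter and annotation were used, and whether molecular identifiers were, is not stated in these sources. Counts of 3′ ends are not divided by gene length. Groups and replicate numbers came from the titles. Since nothing in the labels ties a library to its own animal, a p-value here reflects variation among libraries that can be technical. Bulk counts cannot tell fewer cells of a type from less RNA per cell.

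Counts were scaled by TMM, and filterByExpr kept 7688 genes with 97.5% of counts. The 2 groups were tested in edgeR 4.0.16 (R 4.3.3; quasi-likelihood F test, robust, two-sided), and p-values were adjusted by Benjamini-Hochberg over the 7688 genes and called at 0.05. CPM use the TMM-scaled sizes and are given as mean ± SD, with n = 4 in PBS and n = 3 in DT throughout, and an SE on the log2 scale is the fold change divided by the root of F. Alternatives were upper quartile and RLE factors, no filter, a filter at a mean of 100 counts, DESeq2 1.42.0 on the same genes, limma-voom (limma 3.58.1) with sample weights, a block for replicate number, a covariate for Y-linked reads (present or absent) and dropping the libraries in turn. Under the Y-linked covariate the difference between groups rests on the DT libraries and PBS 1 alone. A fit without PBS 1 and DT 1 was added after seeing the data. The scripts were tested on simulated data. Figures were drawn with matplotlib 3.10.9.

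The genes and lists were chosen with earlier results of these data known. Named genes are the 10 members, up to 4 genes of each pathway list with an unadjusted p below 0.05, the 3 of each list with the highest mean CPM, and the 3 closest in pattern to each of the 2 most read members. Any other gene is marked as picked with its values known, as were the marker genes named.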

Additional observations from a re-analysis of the deposited data

Results flagged for a closer look

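Of 28 named genes, each checked for a saline library lying far from the others, 2 were picked out; chance alone gives 1.4. Tgfb2 was picked out by PBS 3 (247 CPM), whose distance to its neighbour covered 0.929 of the spread from lowest to highest. Plat was picked out by PBS 1 (608 CPM), the lowest, whose distance to its neighbour covered 0.877 of that spread.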

How the results depend on the processing

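Over 16 alternatives, 0 of the 8 tested genes passed in any fit, and 117 of 128 values kept their sign. The signs that turned were those of Tgfbr1 (0.32), Pdgfa (0.75) and Pdgfb (0.50) with the Y-linked covariate, Tgfbr2 with the replicate block (-0.58) and without DT 3 (-0.41), Smad3 (0.11) and Smad7 (0.024) without both PBS 1 and DT 1, Smad7 by limma-voom (0.024) and without PBS 2 (0.13), and Edn1 without PBS 3 (-0.090) and without DT 3 (-0.02). When each library was left out in turn, Tgfbr2 ran from -0.41 to 1.66, Smad7 from -3.69 to 0.13 and Edn1 from -0.090 to 0.46. The median log2 fold change of all tested genes was 0.67 with the Y-linked covariate (0.14 for genes at 100 CPM or more), 0.21 by limma-voom and 0.16 with the block, against -0.02. Every value with the Y-linked covariate sets DT against PBS 1 alone.

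Over the whole table edgeR called 0 genes up and 3 down. DESeq2 called 29 and 82, limma-voom 15 and 6, the fit with a replicate block 6 and 6, the fit on unfiltered genes 1 and 7, and the Y-linked covariate raised the upward calls to 23. Between 0 and 1 were up and between 1 and 4 down in the fits on 6 libraries. Of the other pathway genes, 1 was higher with the Y-linked covariate (Bhlhe40, 0 counts in PBS 1), and 1 was lower with no filter and by DESeq2 (Ctgf in both). Leaving out 1 library gave 0 to 1 lower, which was Ltbp3 without DT 3 (471, 1184, 1230 and 890 counts in PBS 1 to 4, 0 in DT 1 and DT 2, and 915 in DT 3). Bhlhe40 and Ltbp3 were picked once their values were known. Same-numbered libraries were not paired: deviations from the group means over 983 genes correlated at -0.0316 to -0.00649, with 0 of 3 pairs over 0.1, and 0 of 3 DT libraries correlated best with their own number. Apart from fewer libraries or genes, the cause of these changes was not tested. Zeros set the limit of detection: at means of 500 to 1000 counts 8.15% of values were 0.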

Other observations

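Some genes of the pathways had reads in 1 group for the most part, in few libraries. Counts of 0 are frequent in these libraries. Over all genes, 43.5% of values were 0 for a mean of 100 to 200 counts in the remaining libraries of the group. Mme, which encodes neprilysin, a protease that degrades endothelin, gave 11, 0, 0 and 90 reads over PBS 1 to 4, and 8, 697 and 798 over DT 1 to 3. Tgif2, a repressor gene of the SMAD pathway, gave 0, 0, 0 and 197 reads over PBS and 700, 316 and 213 in DT. Nrros, a gene for a myeloid anchor of latent TGF-beta, had 340 counts in DT 2, which also had 703 counts of the leukocyte gene Ptprc, and 0 to 2 counts in each other library. Bmpr1a, a BMP receptor gene, gave 165, 0, 0 and 133 reads over PBS and 354, 204 and 223 in DT. All its DT libraries lay above all PBS libraries, as they did for 3.73% of tested genes. Mme, Tgif2 and Bmpr1a were tested by edgeR, each with an adjusted p of 1.00, and Nrros was not tested. The reverse was found too. Snai1, a gene for a transcription factor of epithelial-mesenchymal transition, gave 557, 0, 0 and 123 reads over PBS, the alarmin gene Il33 gave 78, 0, 0 and 232, the activin inhibitor gene Fst had 311 in PBS 4 alone, and Ltbp1, which encodes a latent TGF-beta binding protein, had 30 in PBS 2 and 101 in PBS 4, each with 0 in DT. Those were below the filter and not tested. The 8 were picked once their values were known.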
